A study of Mus musculus with 16 samples.

Results

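The Toll-like receptors described here were the 10 genes Tlr1, Tlr2, Tlr3, Tlr4, Tlr5, Tlr6, Tlr7, Tlr8, Tlr9 and Tlr13 in epididymal white adipose tissue of mice, a visceral depot. They were taken by gene symbol from a deposited table of 45777 genes, and all 10 were found there. Each of the 10 also passed the filter on low counts that left 19189 genes for testing, and no member had a count of 0 in any library.

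The tissue came from male mice of the A-LTA4HOE line (OE), which overexpress leukotriene A4 hydrolase (LTA4H) specifically in adipocytes, and from their control mice (Ctrl). LTA4H makes the lipid mediator leukotriene B4, and the promoter that drives the extra copy is not given in the sources used here. All mice, Ctrl included, ate a high-fat diet with 60 kcal% fat from 4 weeks of age. The 4 groups were OE mice aged 20 weeks after 16 weeks of diet (OE_20wk), Ctrl mice of the same age and diet (Ctrl_20wk), OE mice aged 8 weeks after 4 weeks of diet (OE_8wk) and Ctrl mice of that age and diet (Ctrl_8wk). Each group had 4 numbered mice with 1 RNA-seq library each, 16 libraries in all. Age and time on the diet changed together, so they cannot be told apart. Any batch that follows age cannot be told apart from them either.

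Toll-like receptors are innate immune sensors with a leucine-rich ectodomain that binds microbial or damage-derived ligands and a cytoplasmic TIR domain that recruits adaptor proteins. Tlr1, Tlr2, Tlr4, Tlr5 and Tlr6 act mainly at the cell surface on lipopeptides, lipopolysaccharide and flagellin, whereas Tlr3, Tlr7, Tlr8, Tlr9 and Tlr13 sense nucleic acids inside endosomes. Signals through the adaptors MyD88 and TRIF reach NF-κB, AP-1 and interferon regulatory factors, and in obese fat the receptors are best known from macrophages, with Tlr4 also expressed by adipocytes.

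Upstream sequences are shown for Tlr13, Tlr8 and Tlr9, endosomal receptors that were all higher at the older age, because their RefSeq windows end where the annotated gene starts. Windows of 250 bases on GRCm38.p6 were matched for 8 of the 10 members, and Tlr4 and Tlr7 had none. The windows of the other 5 matched members lay partly or wholly inside the annotated gene, with 250 bases inside it for Tlr3, both windows of Tlr6 and 1 of the 2 of Tlr1, 216 for Tlr2, 42 for the other window of Tlr1 and 36 for Tlr5. Capitals mark the PU box GAGGAA, a short form of the site of the myeloid factor PU.1, or TTCCTC, the same letters on the other strand. This motif was chosen after the members' values were known, and a match is a description of letters, not of a bound site. Tlr13 lies on the X chromosome (chrX:106143025-106143274, plus strand), as does Tlr8 (chrX:167264330-167264579, minus strand), and the Tlr9 window is on chromosome 9 (chr9:106222348-106222597, plus strand).
Tlr13: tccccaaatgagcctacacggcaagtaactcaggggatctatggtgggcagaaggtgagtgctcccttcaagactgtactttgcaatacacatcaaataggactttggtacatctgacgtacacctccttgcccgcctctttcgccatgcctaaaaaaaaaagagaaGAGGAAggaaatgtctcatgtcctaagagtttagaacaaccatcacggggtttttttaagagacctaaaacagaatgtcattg
Tlr8: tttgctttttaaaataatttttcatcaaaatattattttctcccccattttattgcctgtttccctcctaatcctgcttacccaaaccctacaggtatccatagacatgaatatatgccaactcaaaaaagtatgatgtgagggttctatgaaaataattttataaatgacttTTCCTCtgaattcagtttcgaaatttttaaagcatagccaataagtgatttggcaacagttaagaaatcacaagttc
Tlr9: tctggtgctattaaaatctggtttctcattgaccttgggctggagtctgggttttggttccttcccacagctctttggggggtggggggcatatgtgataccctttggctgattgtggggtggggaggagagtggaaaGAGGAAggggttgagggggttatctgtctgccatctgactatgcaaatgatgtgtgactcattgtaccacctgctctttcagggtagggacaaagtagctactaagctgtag
The PU box was present once in each, starting 83 bases before the annotated start in Tlr13, 77 in Tlr8 and 112 in Tlr9. Among the windows that reach into genes, its letters were in 1 of the 2 of Tlr1 and not in those of Tlr2, Tlr3, Tlr5 or Tlr6, and since these differ in position the members are not compared by it. Of 32851 mouse windows of this length, 7639 (23.3%) held it on either strand, without regard to other motifs.

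A second sequence bears on how far reads of Tlr1 and Tlr6 can be separated. Both genes lie side by side on the minus strand of chromosome 5, Tlr1 at 64924680 to 64933600 and Tlr6 at 64953092 to 64970942 (RefSeq, GRCm38.p6). A run of 229 coding bases within 1 exon of each was identical, at chr5:64925537-64925765 in Tlr1 and chr5:64953828-64954056 in Tlr6, with no capitals because no part differs.
Tlr1 and Tlr6: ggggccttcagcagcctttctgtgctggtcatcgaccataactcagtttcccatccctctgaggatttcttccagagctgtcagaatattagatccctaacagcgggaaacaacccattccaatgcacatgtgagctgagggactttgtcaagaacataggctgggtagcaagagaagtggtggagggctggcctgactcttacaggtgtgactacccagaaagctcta
Of the 75-base words in Tlr6 transcripts, 9.25% were also present in another gene, which was Tlr1, and 10.6% of those in Tlr1 were shared, mostly with Tlr6. None of the other 8 members shared a 75-base word with another gene. How reads matching both genes were counted is not given in the sources used here, so the values of Tlr1 and Tlr6 are uncertain in that part. Exons of Tlr3 overlap those of Gm45542 on the opposite strand, and the strand setting of the counting is likewise not given.

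The libraries held 33.6 to 67.6 M counts, and the members between 107 and 7011 counts each. Lta4h, the overexpressed gene, was higher in OE than in Ctrl at 20 weeks (log2 fold change 1.60 ± 0.14 SE, adjusted p = 0.000145) and at 8 weeks (1.98 ± 0.14, adjusted p = 2.08e-05), in the direction of the labels. The adipocyte genes Adipoq (636 to 3548 CPM) and Plin1 (449 to 1668 CPM) were abundant in every library. Several libraries stood apart. OE_20wk replicate 1 had a mean of 6.93 log2 CPM over 18 macrophage markers, against 7.43 to 8.11 in the other 20-week libraries. OE_8wk replicate 2 and Ctrl_8wk replicate 4 held summed epididymal epithelium markers of 2702 and 4093 CPM, against at most 209.6 CPM in the other libraries. The 20-week libraries held at most 3.83 CPM in OE and 1.85 CPM in Ctrl. OE_8wk replicate 1 and Ctrl_8wk replicate 1 deviated from their groups together across genes (r = 0.83).

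On the per-length scale of TPM, the order of the receptors differed between the ages. Tlr13, a sensor of bacterial ribosomal RNA, had the highest mean at 20 weeks, 54.9 ± 26.3 TPM in OE and 66.4 ± 17.0 TPM in Ctrl (SD, n = 4 each). Tlr8, an endosomal receptor of the single-stranded RNA group, came next with 52.6 ± 18.04 TPM in OE_20wk and 63.3 ± 12.1 TPM in Ctrl_20wk, followed by Tlr1, the partner of Tlr2 for triacylated lipopeptides, with 32.8 ± 11.05 and 42.2 ± 10.7 TPM in those groups. At 8 weeks Tlr4, the lipopolysaccharide receptor, had the highest mean, 11.6 ± 1.85 TPM in OE and 10.2 ± 1.90 TPM in Ctrl. Tlr13 was then sixth of 10 in OE_8wk (7.44 ± 6.76 TPM) and ninth in Ctrl_8wk (3.55 ± 1.31 TPM). Neighbours in each order overlapped in their library values, except Tlr3 and Tlr5 in OE_20wk, so the order is firm only between receptors far apart in it.

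The 10 receptors summed to 241 ± 74.8 TPM in OE_20wk and 285 ± 46.7 TPM in Ctrl_20wk, against 77.7 ± 29.4 TPM in OE_8wk and 61.3 ± 13.2 TPM in Ctrl_8wk (SD, n = 4). The 5 endosomal receptors made up 60.2 ± 3.97% of that sum in OE_20wk and 51.4 ± 3.05% in OE_8wk. In Ctrl their share was 61.8 ± 3.62% at 20 weeks and 48.3 ± 2.98% at 8 weeks, and in neither genotype did the ages overlap. Tlr13 alone gave 21.8 ± 4.65% in OE_20wk and 23.1 ± 2.78% in Ctrl_20wk, against 8.40 ± 4.17% in OE_8wk and 5.64 ± 1.04% in Ctrl_8wk. The share of Tlr4 was lower at 20 weeks, with 7.59 ± 1.21% in OE_20wk, 7.08 ± 0.92% in Ctrl_20wk, 15.8 ± 3.18% in OE_8wk and 16.8 ± 1.15% in Ctrl_8wk. The sum and shares leave out Tlr11 and Tlr12, 2 further mouse Toll-like receptor genes outside the 10. In OE_8wk replicate 4 these had 2.26 and 6.25 TPM. The OE ages were close in the endosomal share, with 54.9% in OE_8wk replicate 4 and 56.0% in OE_20wk replicate 1. If Tlr11 and Tlr12 were counted with the endosomal receptors, the ages would overlap in OE, though not in Ctrl. The lack of overlap in OE therefore holds for the 10 members only.

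**Figure D1:**
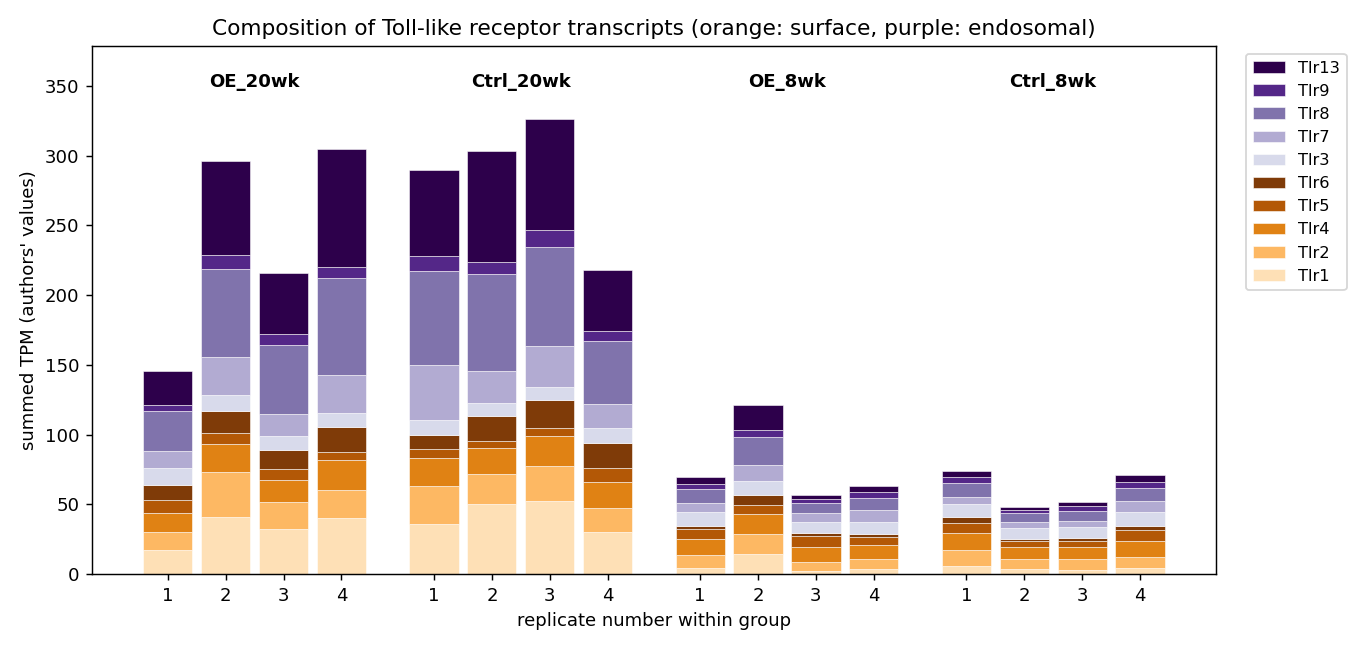
Stacked bars show the authors' TPM of the 10 receptors in each library (x axis: replicate number within each group; y axis: summed TPM), cell surface receptors in orange and endosomal receptors in purple. The 20-week bars reach 146 to 326 TPM and the 8-week bars 48.3 to 121 TPM, and the topmost Tlr13 segment is widest at 20 weeks.

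Between the ages, 8 of the 10 receptors were higher at 20 weeks in OE mice and 8 in Ctrl mice, and in each genotype the exceptions were Tlr3 and Tlr5. Values per library are TMM-scaled CPM, counts relative to library size. Calls are edgeR quasi-likelihood tests adjusted over all genes tested at 0.05. Among all genes, 13.1% were called higher and 9.91% lower in OE, and 19.6% higher and 21.3% lower in Ctrl. The members' median log2 difference was 1.27 in OE and 1.79 in Ctrl, beside -0.03 and -0.05 over all genes. Tlr11 and Tlr12, the Toll-like receptor genes outside the 10, were not called in either genotype, and their estimates were lower at 20 weeks. Tlr11 measured -0.55 ± 0.40 (SE) in OE and -0.05 ± 0.40 in Ctrl, and Tlr12 -1.94 ± 1.07 in OE and -2.51 ± 1.09 in Ctrl. With 2 surrogate variables in the fit, 2 members were still called in each genotype, Tlr8 (1.01 in OE, 1.12 in Ctrl) and Tlr13 (1.27 in OE, 1.54 in Ctrl), and the value of Tlr2 in Ctrl changed sign (-0.02). That fit called 690 of 19189 genes higher in OE and 144 in Ctrl, beside 2509 and 3770 without the surrogate variables. Without OE_8wk replicate 2 and Ctrl_8wk replicate 4, the libraries with the most epididymal transcripts, 8 members were called higher in OE and 8 in Ctrl. Of 19229 genes tested without these libraries, 2988 were called higher in OE and 3984 in Ctrl. Leaving them out does not remove all such transcripts, since other 8-week libraries held some too.

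Tlr13 had the largest difference of the 10 in both genotypes. Its level was 45.6, 127, 82.8 and 156 CPM in OE_20wk and 9.79, 30.2, 5.797 and 9.28 CPM in OE_8wk. In Ctrl it was 117, 149, 144 and 80.1 CPM at 20 weeks and 9.03, 4.47, 5.53 and 8.70 CPM at 8 weeks. The ages did not overlap in either genotype, and within OE_8wk only replicate 2 exceeded 10 CPM. The log2 fold change was 2.90 ± 0.50 (SE; 7.49-fold; adjusted p = 0.00138) in OE and 4.14 ± 0.53 (17.7-fold; adjusted p = 9.11e-05) in Ctrl. Without OE_8wk replicate 2 the OE value was 3.63.

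Tlr8 followed Tlr13 in mean TPM at 20 weeks in both genotypes, and at 8 weeks its mean TPM was above that of Tlr13 in both. It measured 67.0, 147, 113 and 158 CPM in OE_20wk and 25.4, 42.3, 19.9 and 20.0 CPM in OE_8wk. In Ctrl the values were 158, 159, 159 and 101 CPM at 20 weeks and 26.2, 15.1, 17.3 and 20.8 CPM at 8 weeks. No 20-week library of either genotype fell within its 8-week range, and OE_20wk replicate 1 and Ctrl_20wk replicate 4 were the lowest of their groups. The log2 fold change was 2.17 ± 0.30 (adjusted p = 0.000538) in OE and 2.86 ± 0.31 (adjusted p = 4.68e-05) in Ctrl.

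Tlr7, a receptor for single-stranded RNA and the neighbour of Tlr8 on the X chromosome, measured 24.2, 60.3, 32.5 and 55.4 CPM in OE_20wk and 13.7, 22.0, 14.4 and 17.1 CPM in OE_8wk. In Ctrl it had 77.4, 45.1, 54.4 and 31.7 CPM at 20 weeks and 10.7, 9.46, 8.21 and 14.1 CPM at 8 weeks. The ages were separate in both genotypes, by a small gap in OE. The log2 fold change was 1.36 ± 0.31 (adjusted p = 0.00693) in OE and 2.29 ± 0.32 (adjusted p = 0.000156) in Ctrl.

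Tlr9, which binds unmethylated CpG DNA, had the lowest mean TPM of the endosomal receptors in every group but Ctrl_8wk, where Tlr13 was lower. It had 7.34, 16.7, 12.4 and 12.1 CPM in OE_20wk and 6.89, 7.60, 4.61 and 6.96 CPM in OE_8wk, and these ranges overlapped. The Ctrl values were 16.7, 13.5, 19.5 and 10.8 CPM at 20 weeks and 7.57, 4.75, 6.71 and 6.82 CPM at 8 weeks, with no overlap. It was called higher in OE (0.90 ± 0.25, adjusted p = 0.0185) and in Ctrl (1.23 ± 0.25, adjusted p = 0.00185), but the exact permutation test on the 4 against 4 OE libraries gave p = 0.0571, two-sided. The OE call was lost without OE_20wk replicate 2 (adjusted p = 0.0735) or OE_8wk replicate 3 (0.0624).

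Tlr3, the receptor for double-stranded RNA that signals through TRIF, had 24.7, 23.9, 20.2 and 20.4 CPM in OE_20wk and 23.0, 18.2, 19.2 and 17.9 CPM in OE_8wk. Ctrl libraries had 22.5, 19.6, 19.0 and 21.5 CPM at 20 weeks and 21.5, 17.9, 17.1 and 19.6 CPM at 8 weeks. All 4 groups overlapped, and it was not called in OE (0.19 ± 0.11, 95% interval -0.04 to 0.41, adjusted p = 0.214) or in Ctrl (0.12 ± 0.11, -0.11 to 0.34, adjusted p = 0.383).

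**Figure D2:**
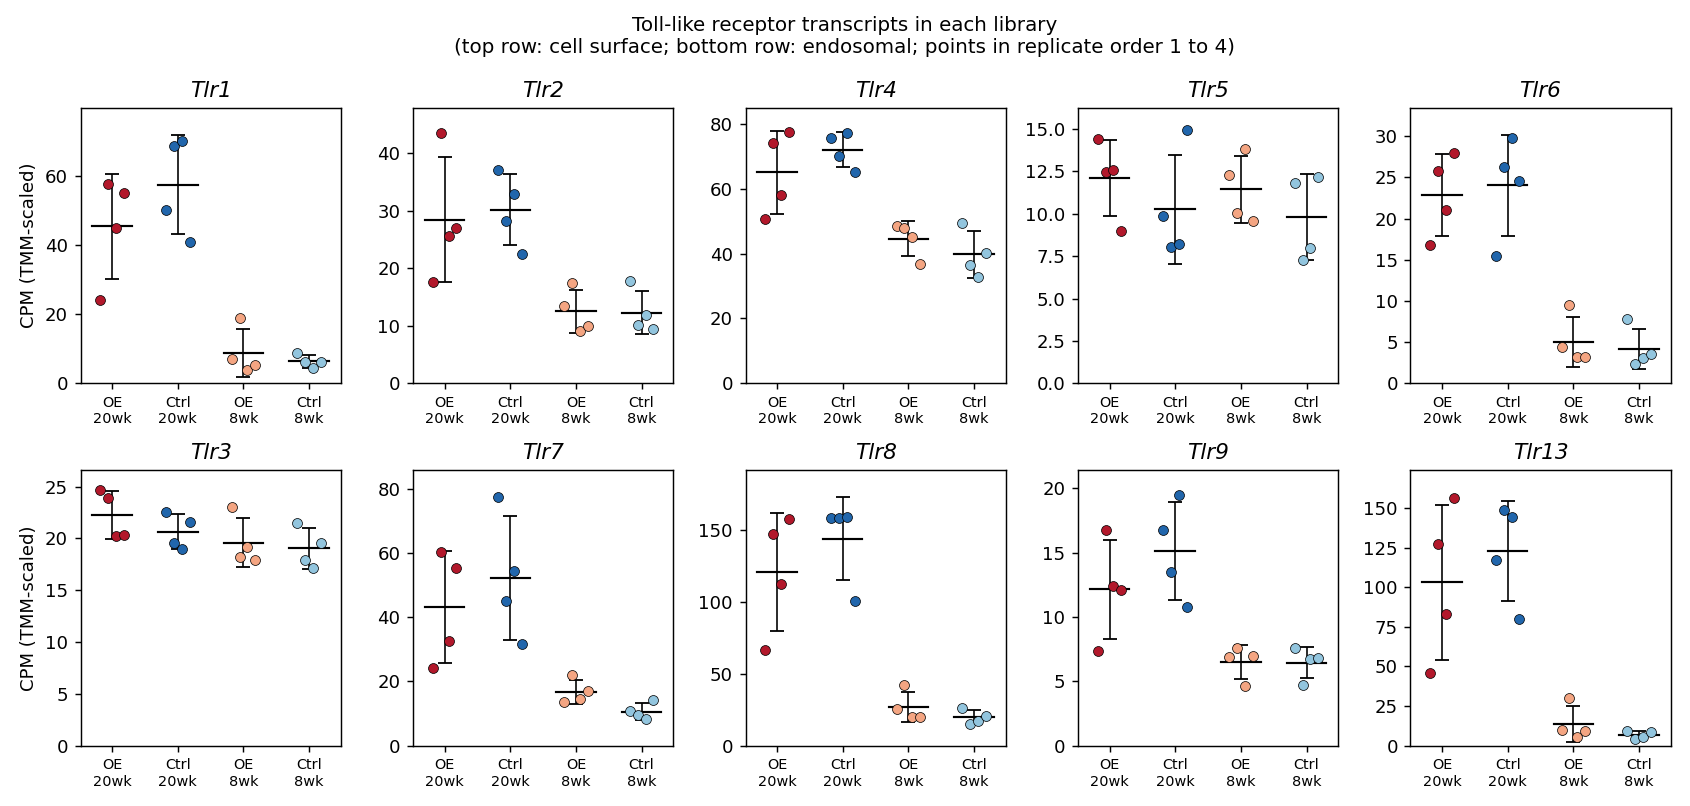
Each panel shows 1 receptor (y axis: TMM-scaled CPM; x axis: group), with 1 point per library, the group mean as a bar and the SD as whiskers (n = 4). Tlr13 lies between 45.6 and 156 CPM in the 20-week libraries and between 4.47 and 30.2 CPM in the 8-week libraries, whereas all Tlr3 values lie between 17.1 and 24.7 CPM.

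Of the surface receptors, Tlr1 and its close relative Tlr6, the partner of Tlr2 for diacylated lipopeptides, differed most between the ages. Tlr1 had 24.1, 57.8, 44.8 and 54.9 CPM in OE_20wk and 6.96, 18.8, 3.93 and 5.31 CPM in OE_8wk. In Ctrl the level was 50.1, 68.5, 70.2 and 40.9 CPM at 20 weeks and 8.82, 6.18, 4.38 and 6.19 CPM at 8 weeks. The ages did not overlap, and OE_8wk replicate 2 again stood above the other 8-week libraries. The log2 fold change was 2.37 ± 0.43 (adjusted p = 0.00197) in OE, or 3.07 without OE_8wk replicate 2, and 3.17 ± 0.45 (adjusted p = 0.000169) in Ctrl. Tlr6 ranged from 16.8 to 28.0 CPM in OE_20wk and from 3.16 to 9.46 CPM in OE_8wk. In Ctrl its range was 15.4 to 29.8 CPM at 20 weeks and 2.31 to 7.75 CPM at 8 weeks, so the ages did not overlap. Its log2 fold change was 2.18 ± 0.41 (adjusted p = 0.00225) in OE and 2.53 ± 0.42 (adjusted p = 0.000441) in Ctrl. Part of both genes' sequence is shared, as printed above.

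Tlr2, which pairs with Tlr1 or Tlr6, differed less than its partners. It had 17.7, 43.5, 25.7 and 27.0 CPM in OE_20wk and 13.5, 17.4, 9.17 and 9.96 CPM in OE_8wk. In Ctrl it had 37.0, 28.3, 32.8 and 22.6 CPM at 20 weeks and 17.7, 10.2, 11.8 and 9.45 CPM at 8 weeks. The ages did not overlap, although OE_20wk replicate 1 lay just above the highest OE_8wk library. The log2 fold change was 1.18 ± 0.29 (adjusted p = 0.00926) in OE and 1.30 ± 0.29 (adjusted p = 0.0031) in Ctrl.

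Tlr4, the highest-ranked receptor at 8 weeks, had the smallest difference among the 8 called. It had 50.7, 74.1, 58.0 and 77.5 CPM in OE_20wk and 48.6, 47.9, 45.0 and 36.8 CPM in OE_8wk. The Ctrl values were 75.5, 70.0, 77.2 and 65.2 CPM at 20 weeks and 49.3, 36.5, 32.7 and 40.3 CPM at 8 weeks. The ages did not overlap, with OE_20wk replicate 1 close to the 8-week range. The log2 fold change was 0.55 ± 0.15 (adjusted p = 0.0172) in OE and 0.86 ± 0.15 (adjusted p = 0.000645) in Ctrl. The OE call was lost without OE_20wk replicate 2 (adjusted p = 0.0613), OE_20wk replicate 4 (0.066) or OE_8wk replicate 4 (0.059).

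Tlr5, the flagellin receptor, ranged from 9.02 to 14.4 CPM in OE_20wk, 8.07 to 14.95 CPM in Ctrl_20wk, 9.61 to 13.8 CPM in OE_8wk and 7.30 to 12.2 CPM in Ctrl_8wk. All 4 ranges overlapped. It was not called in OE (0.08 ± 0.23, 95% interval -0.41 to 0.57, adjusted p = 0.817) or in Ctrl (0.06 ± 0.23, -0.43 to 0.55, adjusted p = 0.844). The 8 called members did not overlap between ages in Ctrl, and 7 of them, all but Tlr9, did not in OE, beside 18.5% of all genes with no overlap and higher values in Ctrl and 12.9% in OE.

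In the comparison of genotypes, none of the 10 receptors was called. At 20 weeks 0.0261% of all genes were called higher and 0 lower in OE, at 8 weeks 0.0208% and 0, and in the average over ages 0.0365% and 0. No member had an unadjusted p under 0.05 at either age or in the average, where 3.97% (20 weeks), 2.21% (8 weeks) and 2.03% (average) of all genes had one, and DESeq2 and limma voom also called none. The 20-week estimates ran from -0.34 ± 0.41 for Tlr1 (95% interval -1.22 to 0.54) to 0.24 ± 0.23 for Tlr5 (-0.25 to 0.73), with 2 of 10 positive. Without OE_20wk replicate 1, Tlr2 (0.09) and Tlr6 (0.05) were positive at 20 weeks too. The 8-week estimates were all positive, from 0.01 ± 0.25 for Tlr9 to 0.99 ± 0.48 for Tlr13. Without OE_8wk replicate 2 the 8-week estimates of Tlr1 (-0.24), Tlr2 (-0.17), Tlr6 (-0.22) and Tlr9 (-0.07) were negative. The Tlr13 interval was -0.04 to 2.01 (unadjusted p = 0.0581, adjusted p = 1), and without OE_8wk replicate 2 the estimate was 0.26. For Tlr7 at 8 weeks the estimate was 0.66 ± 0.31 (interval -0.01 to 1.32, unadjusted p = 0.0522, adjusted p = 1). The narrowest intervals belonged to Tlr3, -0.12 to 0.33 at 20 weeks and -0.18 to 0.27 at 8 weeks.

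Whether the genotype difference changed with age was tested by the interaction, OE_20wk minus Ctrl_20wk less OE_8wk minus Ctrl_8wk. No gene of the table was called in edgeR, 3.39% of genes had an unadjusted p under 0.05, and DESeq2 called 20 genes higher and 10 lower, none of them a member. Tlr7 was the only member under it, at -0.93 ± 0.44 (edgeR unadjusted p = 0.0498, adjusted p = 0.982). The estimate for Tlr13 was -1.24 ± 0.66 (unadjusted p = 0.0831), and -0.51 without OE_8wk replicate 2. A larger age difference of these receptors in Ctrl than in OE was therefore not shown.

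**Figure D3:**
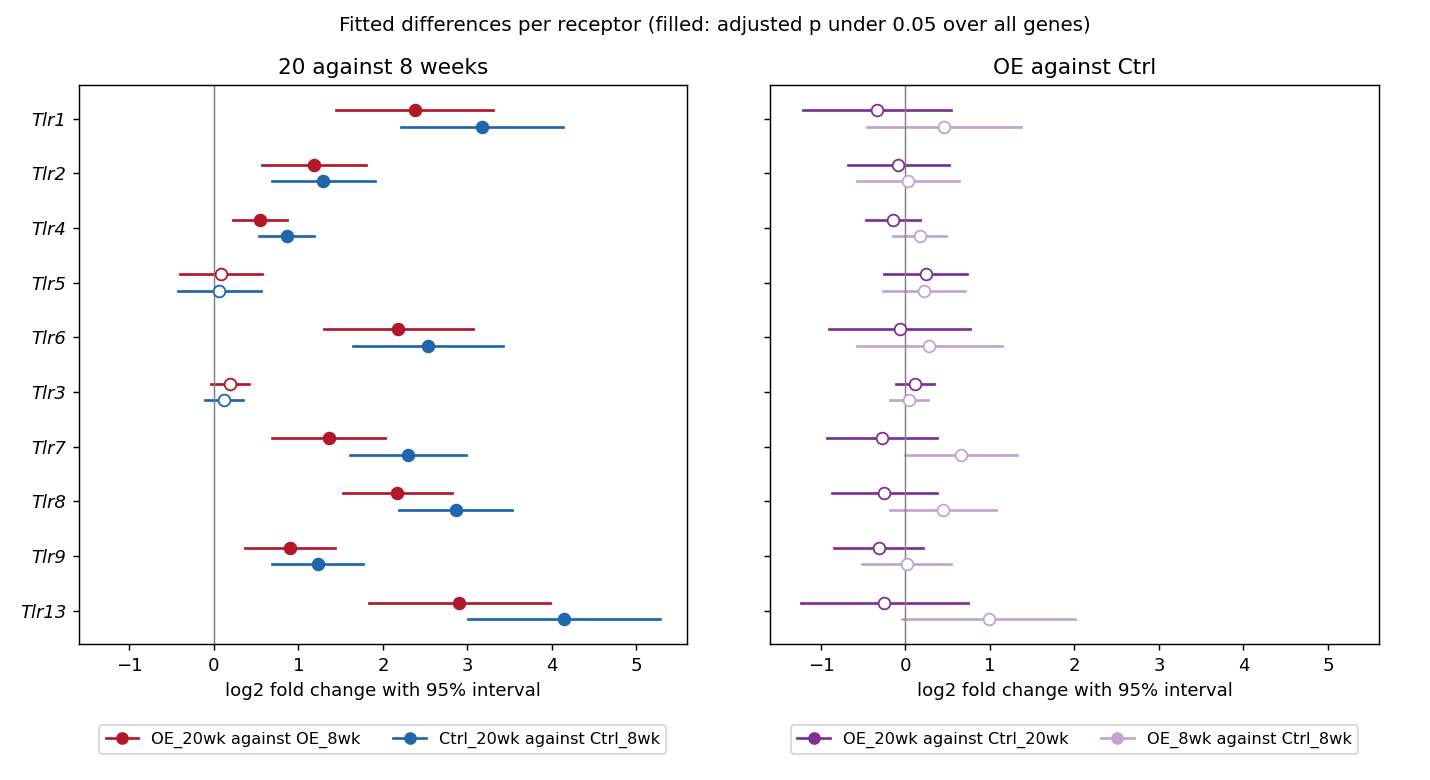
Points are log2 fold changes and lines their 95% intervals for each receptor, for 20 against 8 weeks (left) and OE against Ctrl (right); filled points passed the test over all genes. The 8 filled receptors at left lie between 0.55 and 4.14, and every interval at right includes 0.

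The age difference of the receptors stood beside one in macrophage markers. Of the 18 markers, 15 were higher and 1 lower at 20 weeks in OE (median 1.53), and 16 were higher and none lower in Ctrl (median 2.15). Their summed level was 4636 to 10479.9 CPM in OE_20wk and 6839.7 to 10904 CPM in Ctrl_20wk, against 2074 to 3761 CPM in OE_8wk and 1731 to 2911 CPM in Ctrl_8wk, and none was at 0 in any library. Mature adipocyte markers went the other way, with 8 of 12 lower in OE, 9 of 12 lower in Ctrl and none higher. Smooth muscle markers were lower too, 5 of 6 in OE (median -2.84) and 5 of 6 in Ctrl (median -3.38). Their sum was highest in OE_8wk replicate 2 and Ctrl_8wk replicate 4, the libraries with the most epididymal transcripts. Of 3 epididymal epithelium markers tested, 2 were lower in OE (median -8.47) and 3 in Ctrl (median -10.6). Of 8 endothelial markers 2 were lower in OE and 7 in Ctrl, and of 6 mesothelial markers 5 were lower in OE and 1 in Ctrl, with none higher. B cell markers were mixed, with 1 of 10 higher and 1 lower in OE, and 9 higher and 1 lower in Ctrl. Conventional dendritic cell markers had none of 10 higher and 2 lower in OE, and 4 higher and 2 lower in Ctrl. Among 7 plasmacytoid dendritic cell markers, 1 was lower in OE and 1 higher in Ctrl. T cell markers had 1 of 8 higher in OE and 2 in Ctrl. Neutrophil markers had 1 of the 6 tested higher in OE and 2 in Ctrl, with none lower in either list. Over all genes, 13.1% were called higher and 9.91% lower in OE, and 19.6% higher and 21.3% lower in Ctrl. The T cell, neutrophil and plasmacytoid dendritic cell counts are too small to set apart from those shares. So are the OE counts of B cell markers, the lower counts of conventional dendritic cell markers and the Ctrl count of mesothelial markers. Of 8 fibroblast and progenitor markers, 1 was higher and 1 lower in OE, and 3 were higher and none lower in Ctrl. The OE counts of that list are near the all-gene shares as well. In bulk tissue, more cells of a type and more RNA per cell cannot be told apart, and the part of cell numbers in the receptors' differences was not tested.

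Relative to the mean of the macrophage markers in the same library, the receptors separated into those that differed more and those that differed less. In log2 units, Tlr13 gained 1.62 in OE and 2.16 in Ctrl at 20 against 8 weeks. Tlr1 gained 1.13 in OE and 1.17 in Ctrl, and Tlr8 0.74 in OE and 0.86 in Ctrl. The relative levels of these 3 did not overlap between ages in either genotype, where 1.46% of all genes in OE and 1.14% in Ctrl lay higher without overlap. Tlr6 gained 0.87 without overlap in OE, and 0.63 with overlap in Ctrl.

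Tlr7 had overlapping relative levels in both genotypes, with differences of -0.14 in OE and 0.25 in Ctrl. Tlr4 (-0.90 in OE, -1.13 in Ctrl) and Tlr9 (-0.57 in OE, -0.79 in Ctrl) were lower relative to the markers without overlap in both. Tlr2 (-0.69), Tlr3 (-1.88) and Tlr5 (-1.94) were lower without overlap in Ctrl, and overlapped in OE at -0.28, -1.24 and -1.35. Lower relative levels without overlap were common, in 61.5% of all genes in OE and 83.8% in Ctrl.

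**Figure D4:**
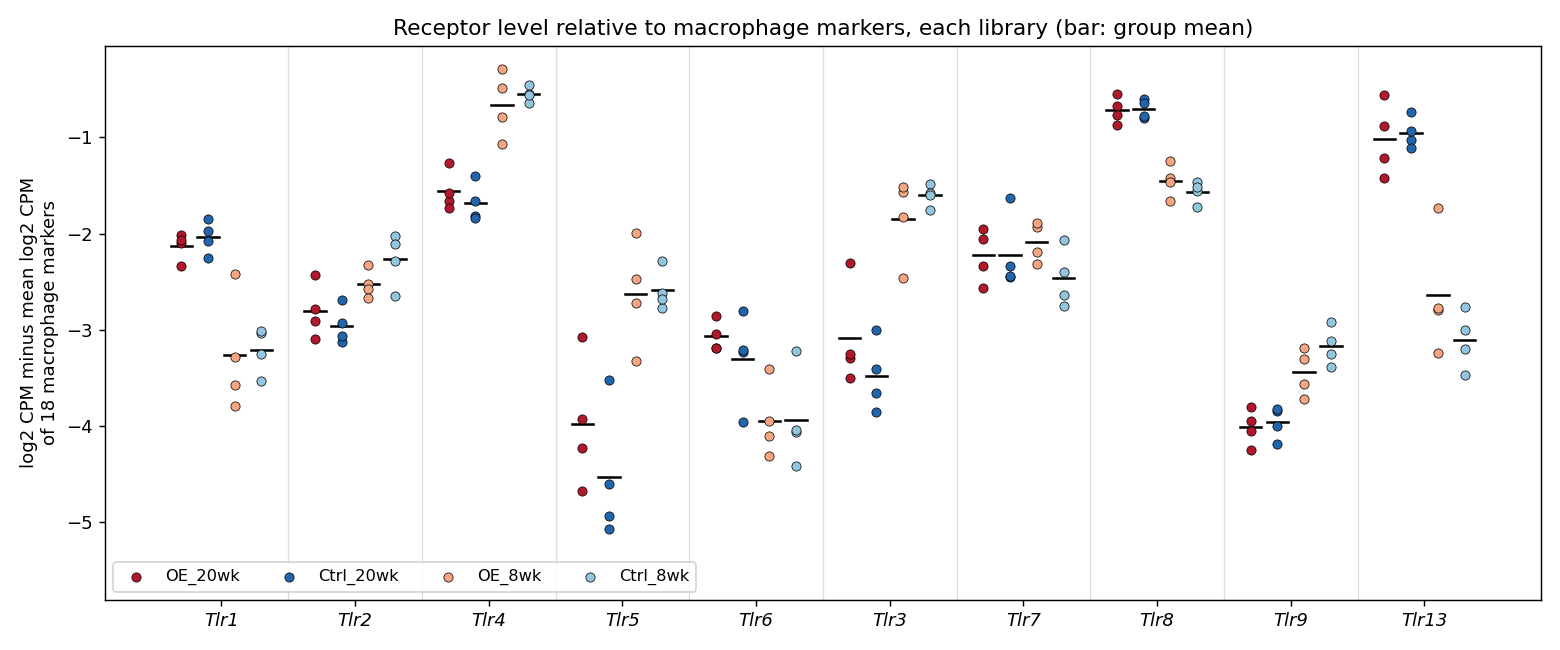
Each point is 1 library's log2 CPM of a receptor minus the mean log2 CPM of 18 macrophage markers (y axis), by receptor (x axis) and group (colour), with group means as bars. Tlr13, Tlr1 and Tlr8 lie higher at 20 weeks on this relative scale, whereas Tlr4 and Tlr9 lie lower.

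The members also differed in how they varied among mice of 1 group. Deviations of log2 CPM from the group mean over the 16 libraries followed those of the macrophage mean closely for Tlr8 (r = 0.98), Tlr13 (r = 0.94) and Tlr1 (r = 0.92). They did so less for Tlr9 (r = 0.84), Tlr2 (r = 0.84), Tlr7 (r = 0.77), Tlr4 (r = 0.76) and Tlr6 (r = 0.74). Those of Tlr3 (r = -0.16) and Tlr5 (r = -0.39) did not follow it. These values are descriptions over libraries that share composition and depth effects. Among the genes most like Tlr8 were Inpp5d (r = 0.99), a myeloid lipid phosphatase, and Pirb, an inhibitory receptor. For Tlr1 they were Apobec1 (r = 0.97), Trem2, a lipid receptor of macrophages, and Gpnmb. For Tlr4 they were Rnf20 (r = 0.96), Xpo1 and Ly96 (r = 0.93), the last being the co-receptor MD-2 that binds lipopolysaccharide with Tlr4. Tlr9 was most like Ly86 (r = 0.97) and Tlr2 most like Lyz2 (r = 0.95), the macrophage lysozyme. The gene most like Tlr3 was Chrnb1 (r = 0.90), and that most like Tlr5 was Pdgfd (r = 0.90). Of the similar genes named here only Lyz2 was among the macrophage markers, so this does not set Tlr3 and Tlr5 apart.

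Among the 6 co-receptors and ligand carriers, 4 were higher at 20 weeks in OE and 4 in Ctrl, and in each the exceptions were Lbp and Cd36. The shares of all genes called higher were 13.1% in OE and 19.6% in Ctrl. Cd14, which hands lipopolysaccharide to Tlr4, had 28.5, 87.7, 51.5 and 66.3 CPM in OE_20wk and 16.1, 27.1, 18.8 and 16.3 CPM in OE_8wk. Ctrl libraries had 70.0, 72.8, 88.5 and 48.2 CPM at 20 weeks and 15.7, 12.3, 12.7 and 14.9 CPM at 8 weeks. No ages overlapped, and its log2 fold change was 1.58 ± 0.29 (adjusted p = 0.00187) in OE and 2.33 ± 0.29 (adjusted p = 8.81e-05) in Ctrl. Ly96 was higher by 0.79 ± 0.18 in OE and 1.03 ± 0.18 in Ctrl. Cd180, a Toll-like receptor homologue of B cells and myeloid cells, was higher by 2.79 in OE and 3.15 in Ctrl, and its partner Ly86 by 1.29 and 1.90 in those genotypes.

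Of 12 genes for receptor trafficking and cleavage, 9 were higher in OE and 10 in Ctrl, and none was lower. Beside this, 13.1% of all genes were called higher and 9.91% lower in OE, and 19.6% and 21.3% in Ctrl. Unc93b1, the chaperone that carries endosomal receptors out of the endoplasmic reticulum, was higher by 1.38 ± 0.23 (adjusted p = 0.00118) in OE and 1.84 ± 0.23 (adjusted p = 9.11e-05) in Ctrl. The proteases Ctsk (2.57 in OE, 2.75 in Ctrl), Ctss (2.45 in OE, 2.78 in Ctrl), Ctsb (1.47 in OE, 1.83 in Ctrl) and Lgmn (1.80 in OE, 2.53 in Ctrl), several of which trim endosomal receptors, were all called higher. The folding helpers Hsp90b1 and Cnpy4 were not called in either genotype.

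Downstream of the receptors the median differences were smaller, 0.64 in OE and 0.55 in Ctrl for the adaptors and 0.27 in OE and 0.31 in Ctrl for the kinases. Of 7 adaptors listed 6 were in the table, and 4 of these were higher in each genotype. The all-gene shares were 13.1% higher and 9.91% lower in OE, and 19.6% higher and 21.3% lower in Ctrl. Myd88, the adaptor of nearly all Toll-like receptors, was higher in Ctrl (0.40 ± 0.13, adjusted p = 0.0251) and measured 0.36 ± 0.13 in OE (adjusted p = 0.0589). Ticam1, the gene of TRIF, was higher by 0.66 ± 0.14 in OE and 0.47 ± 0.14 in Ctrl, Ticam2 by 1.13 in OE and 1.31 in Ctrl, and Pik3ap1 by 2.47 in OE and 2.996 in Ctrl. Of 17 kinases and ubiquitin ligases, 5 were higher and 1 lower in OE, and 8 higher and 2 lower in Ctrl. Ikbke (1.75 in OE, 2.25 in Ctrl), Map3k8 (0.78 in OE, 1.09 in Ctrl), Ikbkb (0.46 in OE, 0.67 in Ctrl) and Tbk1 (0.42 in OE, 0.51 in Ctrl) were among those higher. Tab3 was lower in both, by log2 fold changes of -0.45 in OE and -0.52 in Ctrl, and Chuk in Ctrl (-0.18). The counts of lower kinases and ligases are not above the all-gene shares.

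Of 10 transcription factors, 5 were higher in each genotype and none lower. Set beside this, 13.1% of all genes were called higher and 9.91% lower in OE, and 19.6% and 21.3% in Ctrl. Irf5, which acts after MyD88 in macrophages, was higher by 1.53 ± 0.27 in OE (adjusted p = 0.0017) and 1.88 ± 0.28 in Ctrl (adjusted p = 0.000213). Fos, an AP-1 subunit, was higher by 2.48 in OE and 2.70 in Ctrl, and Rel by 0.88 in OE and 1.13 in Ctrl. Irf7, the interferon factor after Tlr7 and Tlr9, was not called (-0.28 ± 0.34 in OE, -0.48 ± 0.34 in Ctrl). Of 12 negative regulators, 5 were higher in each genotype: Irak3, Otulin, Tnip3, Cd300a and Lilrb4a. Irak3, an inhibitory IRAK family member of macrophages, was higher by 0.40 ± 0.11 in OE and 0.66 ± 0.11 in Ctrl, and Cd300a by 2.36 in OE and 3.29 in Ctrl.

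Among 16 inflammatory target genes 14 passed the filter. Of these, 3 were higher in OE and none lower, and 4 were higher and 2 lower in Ctrl. Over all genes, 13.1% were called higher and 9.91% lower in OE, and 19.6% higher and 21.3% lower in Ctrl. Tnf had 2.65, 3.41, 3.54 and 4.42 CPM in OE_20wk and 1.91, 1.83, 0.621 and 0.764 CPM in OE_8wk. In Ctrl the level was 3.53, 5.28, 3.72 and 4.20 CPM at 20 weeks and 2.05, 1.17, 0.771 and 0.853 CPM at 8 weeks. The ages did not overlap, and Tnf was higher by 1.45 ± 0.39 (adjusted p = 0.0151) in OE and 1.79 ± 0.39 (adjusted p = 0.00277) in Ctrl. The chemokines Ccl3 (2.01 in OE, 3.33 in Ctrl) and Ccl4 (1.61 in OE, 2.06 in Ctrl) were higher in both. Il10, named after its values were seen, was higher in Ctrl (2.53, adjusted p = 0.029) and measured 2.38 in OE (adjusted p = 0.0594). Il1b and Il6, the classical cytokines of receptor stimulation, were at most 4.36 and 0.903 CPM in any library and were not called. In Ctrl, Nos2 (-0.84) and Ptgs2, also named after its values were seen, were lower. Ptgs2 had 685 CPM in OE_8wk replicate 2 and 959 CPM in Ctrl_8wk replicate 4, the libraries with the most epididymal transcripts. In all others it had at most 3.80 CPM.

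Of 10 genes for endogenous ligands, 2 were higher in OE and none lower, and 2 were higher and 1 lower in Ctrl. Over all genes, 13.1% were called higher and 9.91% lower in OE, and 19.6% higher and 21.3% lower in Ctrl. The counts of the ligand genes are too small to set apart from those shares. S100a8, a subunit of calprotectin that acts on Tlr4, was higher by 2.08 in OE and 1.41 in Ctrl, and Bgn, the matrix proteoglycan biglycan, by 0.48 in OE and 0.61 in Ctrl. Hspd1 was lower in Ctrl (-0.51). In none of these lists was a gene called between OE and Ctrl at either age, in the average or in the interaction.

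**Figure D5:**
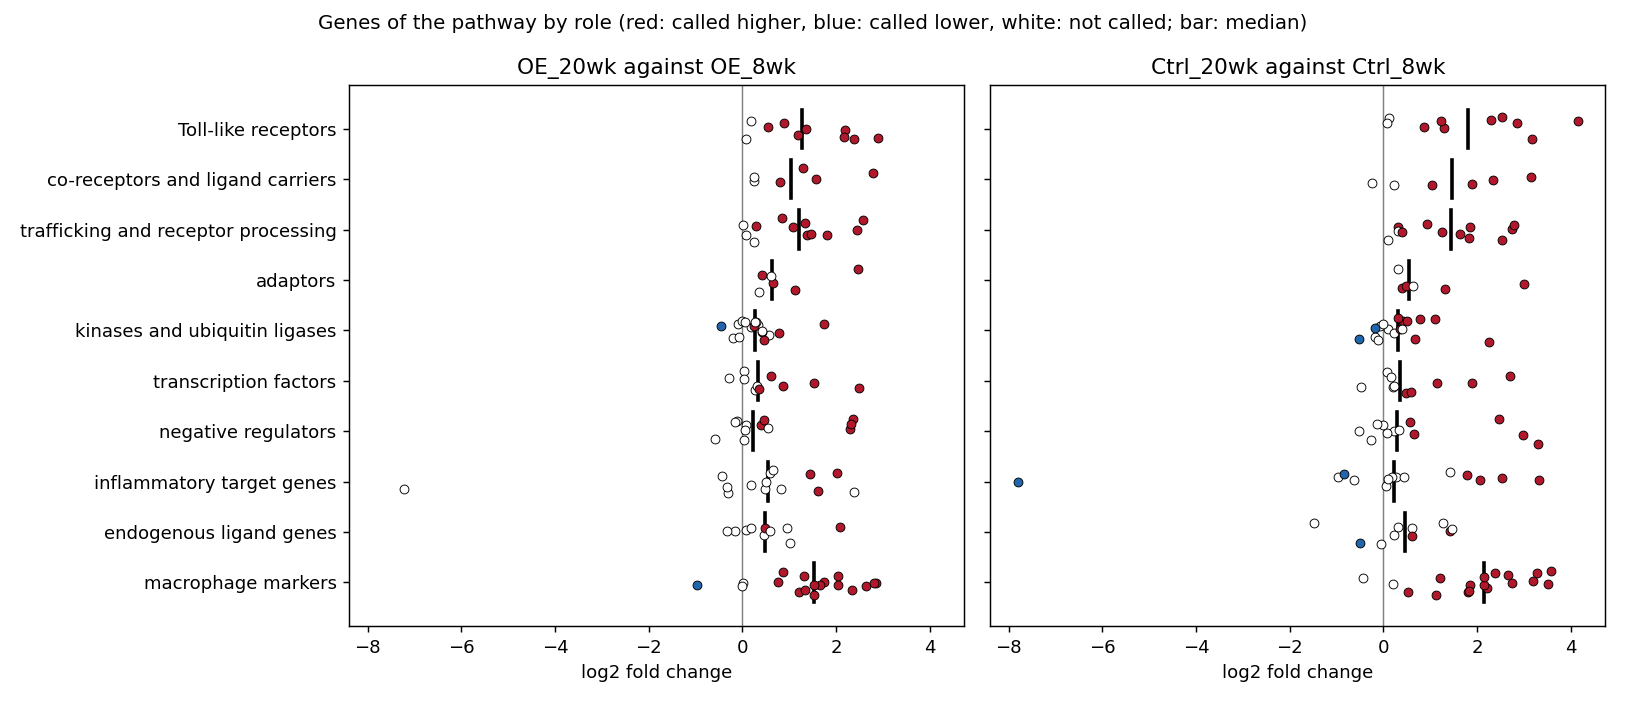
Each point is 1 gene's log2 fold change (x axis), 20 against 8 weeks, in OE (left) and Ctrl (right), by role in the pathway (y axis); red was called higher, blue called lower, white not called, and bars are medians. The receptors' median is 1.27 in OE and 1.79 in Ctrl, those of the kinases, factors and negative regulators lie between 0.24 and 0.35, and the point near -7 to -8 is Ptgs2.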

How the data were processed

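Bulk RNA-seq of 16 libraries was analysed, 4 groups of 4. Per the labels' protocols, RNA was extracted with RNeasy and made into TruSeq stranded mRNA libraries. Per the submitters' processing notes, bcl2fastq 2.20.0, Trimmomatic, HISAT2 2.1.0 and StringTie 2.1.3b were used on mm10. The annotation release, strand setting and treatment of reads matching several genes are not given in the sources used here. The deposited table holds the authors' read counts, whole numbers per gene that were not normalized, which were the values tested. The authors' TPM, scaled per kilobase and to a fixed sum per library, gave levels between genes. The authors' FPKM was not tested.

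Counts were fitted with edgeR 4.0.16 in R 4.3.3: TMM scaling, filterByExpr at a minimum count of 10, and robust quasi-likelihood tests with 1 mean per group and 12 residual degrees of freedom. Benjamini-Hochberg adjustment ran over 19189 genes, with calls at an adjusted p under 0.05. The script was tested on simulated data. Of 67 genes changed 2-fold between genotypes, it recovered 41.8% at 20 weeks and 43.3% at 8 weeks. Of as many changed 1.5-fold it recovered 10.4% at 20 weeks and 16.4% at 8 weeks, so small differences are mostly missed. Alternatives used DESeq2 1.42.0, limma 3.58.1 and sva 3.50.0, other scalings, no filter, a replicate block and libraries left out. Intervals are 95% from the fit. Relative levels used log2 CPM with a prior count of 2. P-values measure the spread between the numbered mice, and their housing or litter is not given. Every member was named, with Lta4h, 9 set pathway genes, up to 4 called genes per list with the smallest adjusted p, and the 3 genes of most similar pattern per receptor, of which a part is printed. The members and lists were chosen with earlier results of these data known. Positions, upstream windows and gene IDs came from RefSeq on GRCm38.p6, the assembly behind mm10, and shared 75-base words from GENCODE transcripts of GRCm38.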

Additional observations from a re-analysis of the deposited data

Results flagged for a closer look

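In 2 of 40 combinations of receptor and group, 1 library stood far from the other 3, measured by its gap to the nearest of them as a share of the group's whole range. About 1 in 20 groups is marked by chance, so this number is no more than chance gives. Tlr8 in Ctrl_20wk replicate 4 was 100.6 CPM, against 158 to 159 CPM in the other libraries of the group. The same library had the lowest macrophage marker mean of its group, 7.43 log2 CPM. Tlr13 in OE_8wk replicate 2 was 30.2 CPM, against 5.797 to 9.79 CPM in the rest of its group. That library had the highest macrophage marker mean at 8 weeks, 6.65 log2 CPM, and held epididymal transcripts. What set these libraries apart was not tested.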

How the results depend on the processing

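Each receptor's difference was recomputed under 27 other settings, or 26 for the interaction and the average over ages. Of 270 values each, all kept their call at 20 and 8 weeks between genotypes, as did 259 for age in OE and 264 for age in Ctrl. Adding 2 surrogate variables reduced the members called higher to 2 in OE and 2 in Ctrl, and turned Tlr2 in Ctrl to -0.0203. Calls fell among all 19189 genes too, to 690 higher and 239 lower in OE. In Ctrl they fell to 144 higher and 52 lower, from 3770 and 4083. Tlr1 then measured 1.05 in OE and 0.96 in Ctrl, Tlr7 0.31 and 0.83. The cause was not tested. Leaving out 1 library gave 6 to 8 members called in OE and 8 in Ctrl, and 0 between genotypes, in the average and in the interaction. Those fits called 1719 to 3107 genes higher in OE and 2965 to 3840 in Ctrl, of 19459 to 19727 tested. The OE losses concerned Tlr4 and Tlr9, the smallest called differences.

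Upper-quartile scaling moved the median of all genes to -0.10 in OE and -0.12 in Ctrl, from -0.03 and -0.05. In OE it gave 2190 genes higher and 2566 lower, beside 2509 and 1902 with TMM. It changed no call of a receptor. Replicate numbers did not pair the mice: in 2 of 24 pairs the deviations of same-numbered libraries correlated above 0.1, and the range was -0.60 to 0.83. With the replicate block, 8 members were called higher in OE, 8 in Ctrl and 0 between genotypes. Of 19189 genes, that fit called 2262 higher in OE and 3384 in Ctrl. Depth did not limit detection, since every member had at least 107 counts, but 4 mice per group leave wide intervals between genotypes, such as -0.04 to 2.01 for Tlr13 at 8 weeks.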
